A study of Mus musculus with 6 samples.

Results

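The replication-dependent histone genes were compared in cardiomyocytes with and without Yap, the transcriptional co-activator of the Hippo pathway. Histone genes of this kind lie in clusters that carry many near-identical copies, and they supply the H2A, H2B, H3 and H4 proteins of the nucleosome core and the H1 proteins of the linker while DNA is copied in S phase. Their mRNAs carry no introns and end in a stem-loop, bound by the protein Slbp, where other mRNAs carry a poly(A) tail. They are made in quantity only while a cell replicates its DNA, and are destroyed when replication stops, so that their level in a tissue is commonly read beside its proliferation. The members are the probe sets with a single annotated gene whose older symbol starts with Hist1h, Hist2h, Hist3h or Hist4h, at a mean intensity over the 6 arrays of at least 86.4, the 40th percentile of all 35556 probe sets. The annotation gives the genes under current symbols, such as H2bc14 for Hist1h2bm, and the older symbols were found through the RefSeq gene table by Entrez identifier. Of 70 histone genes with such an older symbol, 31 had a probe set of their own, 38 were read only by probe sets shared with other genes and 1 by no annotated probe set. The filter kept 29 of the 31, with 5 H1, 5 H2A, 11 H2B, 1 H3 and 7 H4 genes, among 14993 probe sets tested. The dimmest member was H1f6 at a mean of 86.6, and below the filter lay H3c15 at 58.5 and H3c7 at 43.4. The rule also takes in the testis genes H1f6, H2ac1 and H2bc1, which lie in the same clusters.

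RNA of heart muscle cells was measured on 6 Affymetrix mouse gene arrays at E12.5. The control group (Yap HET, 3 arrays) was heterozygous for Yap and the other group (Yap KO, 3 arrays) was knocked out for it. Both groups came from crosses of 3 mouse lines, which brought in the Cre recombinase TNTCre, a floxed Yap allele and the R26 mTmG reporter. TNTCre is driven by the cardiac troponin T promoter, which is active in cardiomyocytes, and cells in which Cre recombined the reporter make green fluorescent protein. Single hearts were digested and green cells were sorted, so that the Yap HET controls carried the Cre and the reporter too. Pooling of hearts and litters were not given in the sources used here. Arrays of a group are described as biological replicates. Each limma p-value sets the group difference against the spread between these arrays, moderated by that of all probe sets in the fit. Because each array read many cells at once, fewer cells in S phase and less histone mRNA per cell cannot be told apart.

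Yap1 itself fell from a mean intensity of 895 ± 28.9 (SD, n = 3) to 91.5 ± 10.3 (SD, n = 3). Over the tested probe sets, which are not independent replicates, log2 intensities correlated at 0.993 to 0.997 within a group and at 0.986 to 0.991 between groups. The summed intensity of 15 cardiomyocyte markers lay between 102394 and 104156 in Yap HET and between 101652 and 104216 in Yap KO. These sums are carried by very bright probe sets, and single markers did differ: Nppa rose by 0.19 (limma adjusted p = 0.0495), and 2 of the 15, Nkx2-5 at -0.18 and Tnni1 at -0.13, were lower at an unadjusted p under 0.05 only. Endothelial and endocardial markers summed to 1330.2 to 1405 against 1609 to 1744, with 2 of 8 tested markers higher. Fibroblast and valve markers summed to 11011 to 11379 against 11959.5 to 13824, with 3 of 9 higher. Beside these shares, 25% and 33.3%, and those of the lists below, 4.94% of all tested probe sets were called higher. Epicardial markers summed to 2970.4 to 3599.8 against 1838 to 2975, with 3 of 6 lower at an unadjusted limma p under 0.05 only. Smooth muscle and pericyte markers summed to 10411 to 11128 against 9294 to 10584 (2 of 7 higher, 28.6%). Macrophage and other blood markers summed to 1943 to 2233 against 2009.6 to 2201 (1 of 6 higher, 16.7%). In these 2 lists, Tagln at -0.46, Kcnj8 at -0.37, Cd68 at -0.72, Ptprc at -0.17 and Csf1r at -0.21 were lower. These 5 were lower at an unadjusted limma p under 0.05 only, where 14.1% of all tested probe sets were. Erythroid markers summed to 497 to 907 across the Yap HET arrays and to 647 to 2802 across the Yap KO arrays. Tie1, Alas2, Adgre1, C1qa, C1qb and Mrc1 lay below the filter of 86.4. Pecam1 at a mean of 86.5, Fcgr1 at 87.2, Gata1 at 88.95 and Klf1 at 89.4 lay just above it. No probe set on these arrays read 0, so that a signal alone does not show that a cell type was present. The part of these other cells in the histone values was not tested.

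Histone mRNA was mostly lower without Yap, by a modest amount. Of the 29 histone genes, 9 fell and 0 rose (limma, Benjamini-Hochberg adjusted p under 0.05 over 14993 probe sets). The share that fell, 31.0%, stands beside 4.53% of all tested probe sets that fell, and the share that rose, 0%, beside 4.94% that rose. At an unadjusted limma p under 0.05, 15 of the 29 histone genes were lower and 2 were higher, where 14.1% and 13.7% of all tested probe sets were. The log2 change was below 0 for 22 of the 29, against 54.6% of all tested probe sets, and the median change was -0.16, against -0.02 over all tested probe sets. All 3 Yap KO arrays lay below all 3 Yap HET arrays for 16 histone genes, which is 55.2% beside 16.8% of all tested probe sets. The reverse held for 1 histone gene, H2bc4, beside 16.6% of all tested probe sets. The 9 that fell did so by 0.22 to 0.35 on the log2 scale, a 1.17- to 1.27-fold lower intensity, with adjusted p-values from 0.0129 to 0.0487.

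Many of these calls sat near the threshold and depended on single arrays. Without Yap HET replicate 1, 2 or 3, limma called 0, 5 and 1 histone genes lower. Of all tested probe sets, 1.33%, 4.06% and 2.41% were then called lower. Without Yap KO replicate 1, 2 or 3, it called 1, 0 and 8, beside 4.44%, 1.46% and 2.05% of all. The limma fit without Yap HET replicate 1 called 0 of the 29. In it, 12 of the 29 were lower at an unadjusted p under 0.05, beside 10.4% of all tested probe sets. The fit that left out replicate 2 of Yap KO also called 0. There, 14 of the 29 were lower at that unadjusted p, beside 10.03% of all. Across these 6 fits, 22 to 24 of the 29 log2 changes were below 0 and the median change lay between -0.19 and -0.15. The limma call on H2bc14 held in 4 of the 6 fits, those on H2bc1 and H4c3 in 2 and that on H4c4 in 0, and H2bc18, H2bu1-ps, H2ac8, H4c14 and H4f16 each kept theirs in 1. With no filter on dim probe sets, with every probe set fitted or with the replicate number as a block, limma called H2bc14 alone, and with array weights it called 17 lower. Array weights raised the calls everywhere, with 17.6% of all tested probe sets then lower. The other fits just named had, in order, 1.13%, 1.96% and 2.19% lower.

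**Figure D1:**
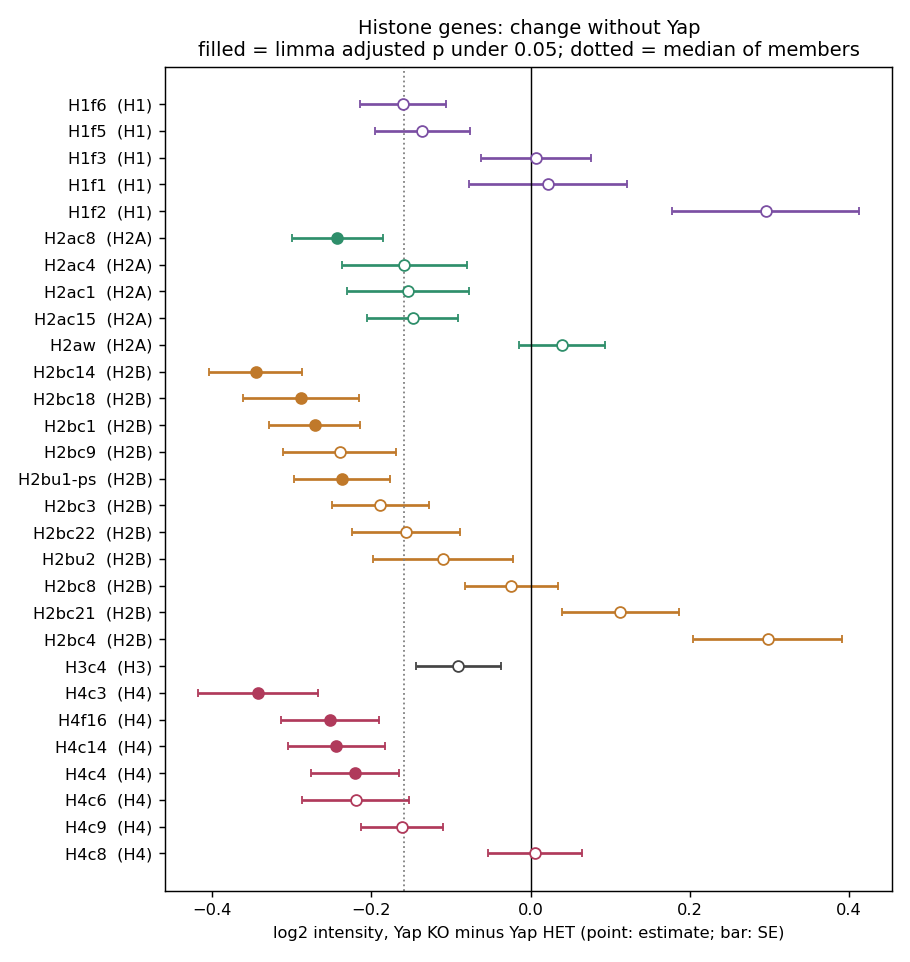
Log2 intensity change (Yap KO minus Yap HET, horizontal axis) of each of the 29 histone genes, grouped by class and ordered within a class from the lowest change. Points are limma estimates, bars their SE, filled points the 9 genes with an adjusted p under 0.05, and the dotted line is the median of -0.16. The filled points lie in the H2A, H2B and H4 classes, and the 2 points near 0.30 are H1f2 and H2bc4.

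Histone promoters share a small set of motifs, which were searched for by class. RefSeq promoter sequences (mouse assembly GRCm38.p6) were found for 25 of the 29, and those of H2bu1-ps, H2bc21, H2bc4 and H4c14 were not matched. In the 250 bases before the start of the gene, on both strands, the TATA box letters TATAAA were present in 15 of 25, against 13% of the 27025 promoters in the table. The letters CCAAT, read by the NF-Y complex, were present in 21 of 25, against 34.5% of all promoters. ATTTGCAT, the octamer bound by the POU factor Oct-1, was present in 9 of 25, against 1.61% of all promoters. The octamer was found in 4 of 5 H2A and 5 of 8 H2B promoters and in 0 of the 5 H1, 1 H3 and 6 H4 promoters. It stood in 4 of the 7 promoters on hand of genes that fell. The searched stretches of H2ac8 and H2bc8 share 179 bases, and those of H2ac1 and H2bc1 share 220. In each of these pairs the same octamer is counted for both genes, as is any other motif in the shared bases. Any of TTTGGCGC, TTTCCCGC and TTTCGCGC, which are E2F-type letters, was present in 1 of 25, that of H2bc22, against 1.59% of all promoters. A match is a description of these letters and not a measured site, and the letters searched do not cover other spellings of a site.

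The 150 bases before the start are shown for 5 members: the divergent pair H2ac8 and H2bc8, which share their promoter, H2bc14 and H4c3, which had the largest falls, and H1f2, whose estimate was above 0. Capitals mark the motif letters above on either strand, and each sequence reads 5′ to 3′ on the strand of its gene (GRCm38.p6).
H2ac8 (chr13:23571221-23571370, minus strand): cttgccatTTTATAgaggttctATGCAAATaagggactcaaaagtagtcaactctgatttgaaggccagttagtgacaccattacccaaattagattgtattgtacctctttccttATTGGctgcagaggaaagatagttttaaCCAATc
H2bc8 (chr13:23571250-23571399, plus strand): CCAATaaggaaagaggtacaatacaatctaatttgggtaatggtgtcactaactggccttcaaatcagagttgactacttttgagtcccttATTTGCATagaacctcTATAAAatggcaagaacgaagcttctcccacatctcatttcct
H2bc14 (chr13:21721894-21722043, plus strand): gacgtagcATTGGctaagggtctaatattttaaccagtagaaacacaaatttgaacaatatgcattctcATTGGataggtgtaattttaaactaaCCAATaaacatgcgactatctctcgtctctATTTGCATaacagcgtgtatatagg
H4c3 (chr13:23698459-23698608, minus strand): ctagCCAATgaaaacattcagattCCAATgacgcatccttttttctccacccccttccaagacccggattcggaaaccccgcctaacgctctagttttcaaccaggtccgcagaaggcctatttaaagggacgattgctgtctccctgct
H1f2 (chr13:23738657-23738806, plus strand): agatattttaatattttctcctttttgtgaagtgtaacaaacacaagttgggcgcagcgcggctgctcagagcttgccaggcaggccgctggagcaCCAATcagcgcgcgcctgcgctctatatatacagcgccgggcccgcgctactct
The first 2 sequences are opposite strands of the same stretch over 121 bases, and each reads the octamer in the orientation opposite to the other.

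Among the H2B genes, which encode the partner of H2A in the nucleosome, 4 of 11 fell and the median change was -0.19. The share that fell, 36.4%, stands beside 4.53% of all tested probe sets. Intensities are given here and after in the order of the replicate numbers, Yap HET before Yap KO. H2bc14 read 3426, 3407 and 3217 across the Yap HET arrays and 2606, 2522 and 2787 across the Yap KO arrays. The groups lay well apart, with means of 3349.8 ± 115 and 2638 ± 136 (SD, n = 3 each), and the log2 change of -0.35 ± 0.06 (SE) was the largest fall of all 29 (limma adjusted p = 0.0129). H2bc14 is a Hist1 gene on chromosome 13 whose promoter, printed above, holds both the octamer and CCAAT.

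H2bc18, a gene of the Hist2 cluster on chromosome 3, read 776, 762 and 775 against 601, 595 and 706. Its Yap HET arrays were nearly equal and Yap KO replicate 3 was the nearest to them, without overlap. The fall was 0.29 ± 0.07 on the log2 scale (limma adjusted p = 0.0482). H2bc1 encodes the testis H2B variant, known as TH2B, and read 1242, 1192 and 1233 against 1023, 954 and 1065. The groups did not overlap, and its log2 change was -0.27 ± 0.06 (limma adjusted p = 0.0279). This probe set is among those whose gene is also listed in a shared probe set, so that signal of other H2B genes cannot be told apart from its own. H2bu1-ps, a Hist3 gene named as a pseudogene, read 911, 864 and 893 against 719.9, 738 and 809. Again the lowest Yap HET array was above the highest Yap KO array, and the change was -0.24 ± 0.06 (limma adjusted p = 0.0487).

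The other 7 H2B genes ran from a change of -0.24 to one of 0.30 and none passed the limma threshold. H2bc9 had the lowest of these changes, -0.24 ± 0.07 with groups that did not overlap, and an adjusted p of 0.0742 by limma. H2bc4 stood at the other end. It read 1549, 1436 and 1291 across the Yap HET arrays and 1564, 1778 and 1919.7 across the Yap KO arrays. Every Yap KO array was above every Yap HET array, replicate 1 only just, and the change of 0.30 ± 0.09 missed the threshold (limma adjusted p = 0.0878, 95% interval 0.08 to 0.51). Without Yap KO replicate 1, limma called H2bc4 higher (1 of 29). H2bc21 also had an estimate above 0, at 0.11 ± 0.07 with overlapping groups. H2bc4, H2bc8 and H4c8 were picked out after their values were seen.

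**Figure D2:**
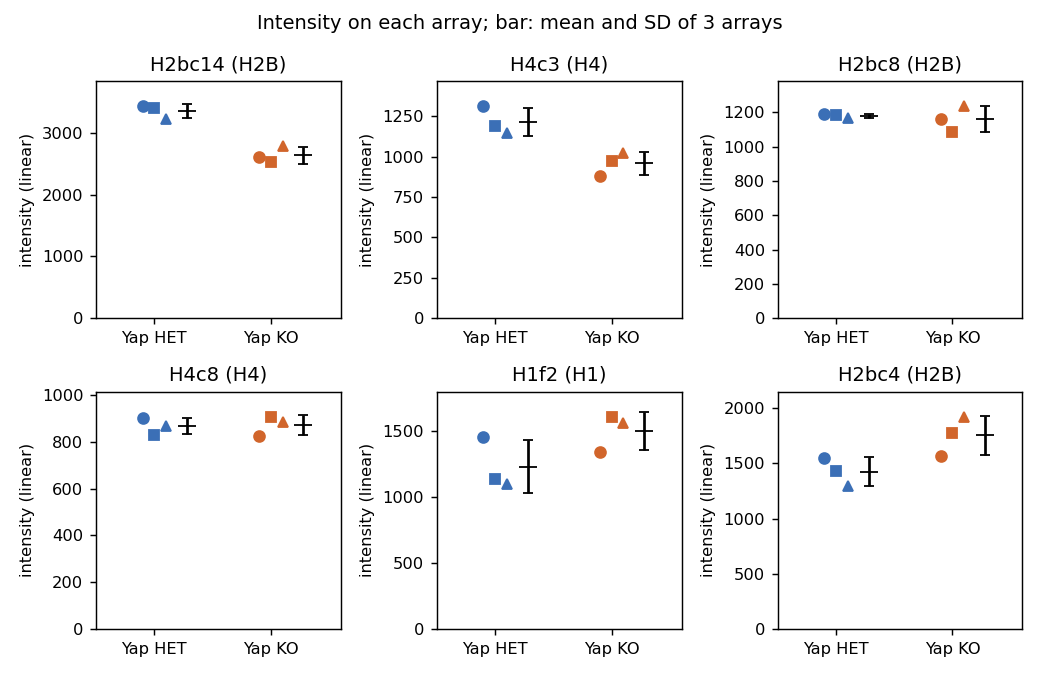
Linear intensity on each array (vertical axis, from 0) of 6 histone genes in Yap HET and Yap KO, with circles, squares and triangles for replicates 1, 2 and 3 and black bars for the mean and SD of 3 arrays. H2bc14 and H4c3 are lower on every Yap KO array, H2bc8 and H4c8 overlap, H1f2 overlaps through Yap HET replicate 1, and H2bc4 is higher on every Yap KO array.

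Among the H4 genes, 4 of 7 fell, the median change was -0.22, and 6 of the 7 had Yap KO arrays that all lay below the Yap HET arrays. These shares, 57.1% and 85.7%, stand beside 4.53% and 16.8% of all tested probe sets. H4 is the most conserved of the core histones, and its gene copies mostly encode the same protein. H4c3 read 1310.1, 1186 and 1147 across the Yap HET arrays and 882, 973 and 1020.3 across the Yap KO arrays. The groups did not overlap although both were spread, and the fall was 0.34 ± 0.07 on the log2 scale (limma adjusted p = 0.0314). Its promoter, shown above, holds CCAAT at 2 places in the 150 bases and no octamer.

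H4f16, the single Hist4 gene, on chromosome 6, read 1731, 1675 and 1666 against 1327, 1419 and 1520.0. All Yap KO arrays were lower, and the change was -0.25 ± 0.06 (limma adjusted p = 0.0429). H4c14, a Hist2 gene, read 2996, 2753 and 2888 against 2342, 2369 and 2586. Replicate 3 was the highest of the Yap KO arrays and still below every Yap HET array, with a change of -0.24 ± 0.06 (limma adjusted p = 0.0455). H4c4 had 6418, 6969.9 and 6408 across the Yap HET arrays and 5655, 5506 and 5821 across the Yap KO arrays. The groups were separate, and the change was -0.22 ± 0.06 (limma adjusted p = 0.0476). H4c6 and H4c9 had changes of -0.22 and -0.16 with separate groups and limma adjusted p-values of 0.0831 and 0.0891, short of the threshold. H4c8 alone among the H4 genes had an estimate above 0, reading 903, 831 and 869.9 against 824, 906 and 886. Its groups overlapped fully, and its change of 0.01 had a 95% interval of -0.13 to 0.14. That estimate was below 0 in 3 alternatives: -0.00063 after quantile normalization, -0.0020 after cyclic loess and -0.025 with array weights.

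Among the H2A genes, 1 of 5 fell (20%, beside 4.53% of all tested probe sets) and the median change was -0.15. H2ac8 read 1031, 947 and 955 across the Yap HET arrays and 802, 814 and 863 across the Yap KO arrays. The groups did not overlap, and the change was -0.24 ± 0.06 (limma adjusted p = 0.0396). H2ac15 read 3652, 3541 and 3648 against 3056, 3359.7 and 3381. Its Yap KO arrays were all lower, but the change of -0.15 ± 0.06 missed the threshold (limma adjusted p = 0.141). The other 3 were H2ac4 at -0.16, H2ac1, the testis H2A variant, at -0.15 and H2aw of the Hist3 cluster at 0.04, all with overlapping groups.

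H2ac8 and H2bc8 are divergent neighbours, and the 250-base windows before their starts share 179 bases. H2bc8 read 1190.4, 1184 and 1165 across the Yap HET arrays and 1164, 1087 and 1235 across the Yap KO arrays. Its Yap KO arrays lay on both sides of the Yap HET arrays, with a change of -0.02 ± 0.06 (95% interval -0.16 to 0.11) that turned to 0.02 without Yap KO replicate 2. The log2 ratio of H2ac8 to H2bc8 was -0.21, -0.32 and -0.29 across the Yap HET arrays and -0.54, -0.42 and -0.52 across the Yap KO arrays. The mean ratio was lower by 0.22 in Yap KO without overlap (exact two-sided permutation test, p = 0.1, the smallest that 3 against 3 arrays allow). Both genes are also listed in shared probe sets, so that signal of other H2A and H2B genes cannot be told apart from theirs. H2bc8 was among the genes picked out after their values were seen. In the other divergent pair, H2ac1 and H2bc1, the windows share 220 bases, the changes were -0.15 and -0.27, and the mean log2 ratio was 0.12 higher in Yap KO, with overlapping groups (exact two-sided permutation test, p = 0.3).

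None of the 5 H1 genes, which encode the linker histones that bind between nucleosomes, passed the threshold in either direction (limma, with 1 lower and 1 higher at an unadjusted p under 0.05, beside 14.1% and 13.7% of all tested probe sets). Their median change was 0.01, the highest of the classes with more than 1 gene. H1f6, the testis linker histone, read 88.5, 96.5 and 89.3 against 80.2, 83.4 and 81.6. The groups did not overlap and the change was -0.16 ± 0.05, but these intensities lie near the filter level and cannot be told from background (limma adjusted p = 0.105). H1f2 read 1457, 1135 and 1096 across the Yap HET arrays and 1339, 1604 and 1559 across the Yap KO arrays. Yap HET replicate 1 lay above Yap KO replicate 1, so that the groups overlapped, and the change was 0.30 ± 0.12 (limma adjusted p = 0.151, 95% interval 0.02 to 0.57).

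H1f5 was at -0.14 ± 0.06 with groups that did not overlap. H1f3 and H1f1 were at 0.01 and 0.02, both with overlapping groups. With array weights these 2 estimates were -0.0038 and -0.064. Of the H1 promoters, that of H1f2 is printed above, with CCAAT in capitals.

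The single H3 gene with a probe set of its own past the filter was H3c4, which read 1144, 1075 and 1105 across the Yap HET arrays and 1083, 1002 and 1037 across the Yap KO arrays. The groups overlapped and the change was -0.09 ± 0.05 (limma adjusted p = 0.312). Most H3 genes were read only by shared probe sets. Fitted over all 21334 probe sets past the filter, the 10 shared H3 probe sets, each listing 12 genes, had log2 changes of -0.24 to -0.20 and in all 10 the Yap KO arrays lay below the Yap HET arrays. Their limma adjusted p-values ran from 0.0546 to 0.0630, so that 0 of 10 were called, and all 10 were below 0.05 before adjustment. These probe sets list the same genes and are not 10 separate measurements.

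The other 17 shared probe sets came from the same fit. In this wider fit, 1.96% of all probe sets were called lower, and of the 29 histone genes only H2bc14 was. Of 6 shared H4 probe sets, 1 was called lower, one that lists 11 genes. It read 6341, 6363 and 6308 against 5351, 5372 and 5569, a change of -0.22 ± 0.05 (limma adjusted p = 0.0482), with groups far apart. The 6 ran from -0.27 to -0.21. The 2 shared H2A probe sets had changes of -0.23 and -0.22 and the 7 shared H2B probe sets of -0.15 to -0.11, with no overlap between groups in any of these and no call. Of the 6 H4 and 7 H2B probe sets, 5 and 6 carry distinct values, since a pair in each class reads identically. The remaining 2 each list a pair of genes of different kinds. The one for H2bc6 and H1f4 had a change of -0.21 with separate groups (limma adjusted p = 0.0757). The one for H2aw and Trim17, a gene that is no histone, had overlapping groups and a change of -0.0036 (limma adjusted p = 0.974). In all, 17 of the 29 histone genes are also listed in a shared probe set, 5 of the 9 that fell among them, and cross-hybridisation between near-identical copies means that single members are uncertain where their class as a whole is read.

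By genomic cluster, 5 of 22 Hist1 genes (chromosome 13), 2 of 3 Hist2 genes, 1 of 3 Hist3 genes and the single Hist4 gene fell. The Hist1 share, 22.7%, stands beside 4.53% of all tested probe sets, and the other clusters hold too few genes for a share. The median change of the Hist1 genes was -0.16. The 4 genes outside Hist1 that fell, H2bc18, H4c14, H2bu1-ps and H4f16, are not listed in any shared probe set.

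The arrays did not differ evenly. Of the 29 histone genes, 24 lay below every Yap HET array in Yap KO replicate 1, 22 in replicate 2 and 17 in replicate 3. The median over the members, relative to the Yap HET mean, was -0.24, -0.14 and -0.09 across the Yap KO arrays and 0.04, -0.02 and -0.03 across the Yap HET arrays. Yap HET replicate 1 was the highest of its group, with 4 members below the group mean, against 19 and 20 in replicates 2 and 3. Red blood cell transcripts also differed by array: Hbb-y, an embryonic beta-like globin, read 232, 27.1 and 19.8 across the Yap HET arrays and 1295, 450 and 86.3 across the Yap KO arrays. Its log2 change of 2.89 was the highest of all tested probe sets, with overlapping groups (limma adjusted p = 0.148). The Hbb-y signal was highest in Yap KO replicate 1, where the histone median was lowest. Among the Yap HET arrays the order was the opposite: Hbb-y was highest in replicate 1, where the histone median was highest. The part of red blood cell RNA in the histone values was not tested.

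**Figure D3:**
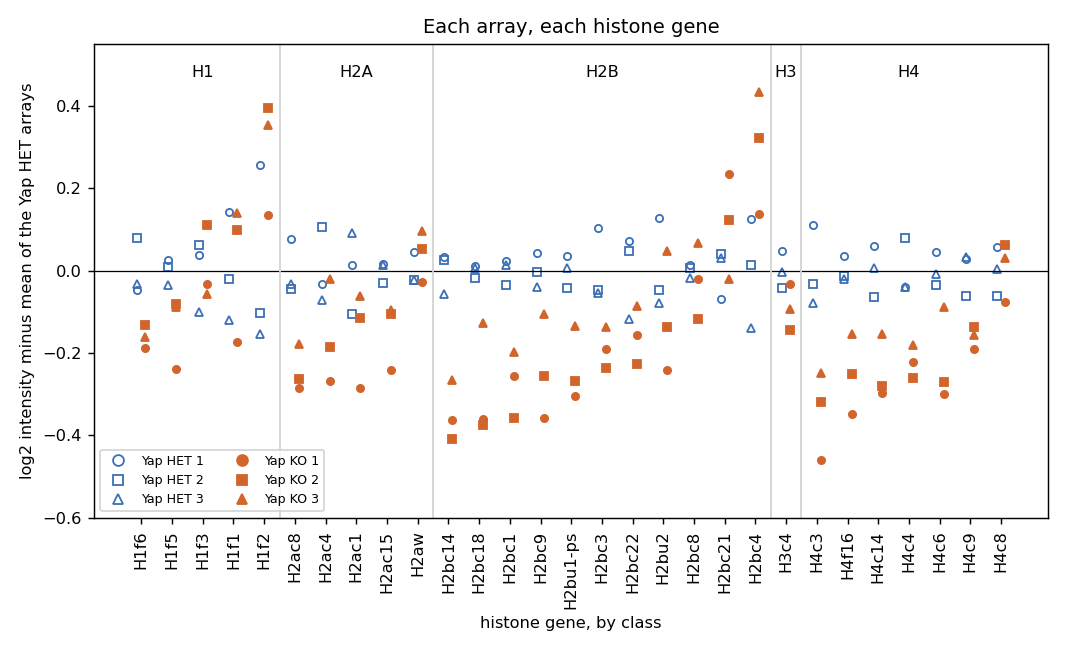
Log2 intensity of each histone gene (horizontal axis, by class) on each array, minus the mean of the 3 Yap HET arrays (vertical axis). Open blue symbols are Yap HET and filled orange symbols Yap KO, with circles, squares and triangles for replicates 1, 2 and 3; for 16 of the 29 genes every orange symbol lies below every blue one, and Yap KO replicate 1 is often the lowest.

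The machinery around the histone genes was described from lists of related genes. Of 55 genes for entry into S phase and for DNA replication, 25 were lower and 0 higher (limma adjusted p under 0.05, with 0 higher at an unadjusted p under 0.05), with a median change of -0.23. That is 45.5% lower, beside 4.53% of all tested probe sets. The 4 with the smallest p were Cdt1, which licenses replication origins, at -0.55, Mcm10, which helps start the replication fork, at -0.48, Mcm5, a subunit of the replicative helicase, at -0.42, and Cdc6, which loads that helicase, at -0.56. Cdt1 read 1101, 1131 and 1021 across the Yap HET arrays and 741, 734 and 744 across the Yap KO arrays. The falls of these 4 were larger than that of any histone gene, as estimates and without a test of the difference. Without Yap HET replicate 1, 8 of the 55 fell, without Yap KO replicate 2, 10, and without Yap KO replicate 3, 12. In the same fits, 1.33%, 1.46% and 2.05% of all tested probe sets fell.

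Histone chaperones hand newly made histones to DNA. Of 25 chaperone and assembly genes, 6 fell (24%, beside 4.53% of all tested probe sets) and 1 rose (4%, beside 4.94%), with a median change of -0.11. Tonsl, a reader of newly made histones, fell by 0.57, Mcm2, a helicase subunit that also binds H3 and H4, by 0.33, Asf1b, the H3-H4 chaperone of dividing cells, by 0.31 and Chaf1a, a subunit of chromatin assembly factor 1, by 0.27 (limma adjusted p from 0.00671 to 0.0206). Mcm2 is also counted, by the same probe set, among the replication genes that fell. Anp32e, a chaperone that removes H2A.Z, rose by 0.28 (limma adjusted p = 0.0273). Its call was lost without replicate 2 or 3 of either group. The count of falls became 2 with Yap HET replicate 1 left out, and 3 with replicate 2 or 3 of Yap KO left out. Beside these stand 1.33%, 1.46% and 2.05% of all tested probe sets that fell in the same fits.

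The next list holds the genes that make, process and destroy histone mRNA. Of 26 genes for histone gene transcription and stem-loop processing, 0 fell (limma, with 2 lower at an unadjusted p under 0.05) and 2 rose, with a median of -0.04. The 7.69% that rose is close to the 4.94% of all tested probe sets, and 14.1% of all were lower at an unadjusted p under 0.05, so these counts do not set the list apart. The 2 that rose were Cstf2t, a cleavage stimulation factor subunit, by 0.33 and Tut4, a terminal uridylyl transferase that acts in histone mRNA decay, by 0.20 (limma adjusted p = 0.0253 and 0.0489). With each array left out in turn, 0 to 1 of them rose: 1 without Yap HET replicate 2 or 3, and 0 without any of the other arrays. The next 2 by p, Ctif at -0.16 and Tut7 at 0.14, did not pass. Zbtb17, at -0.13 and not called, is counted among the 26 although the list did not name it. It entered as the match to the older symbol Zfp100, and its place among histone mRNA genes is doubtful. Zfp473, which was named, lay below the filter.

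Most replication-independent variants are made throughout the cell cycle and replace the replication-dependent proteins. Of 11, 0 fell and 0 rose (limma adjusted p under 0.05), and the median change was -0.11. At an unadjusted limma p under 0.05, 3 of the 11 were lower and 0 higher, where 14.1% and 13.7% of all tested probe sets were. The 4 with the smallest p were H2aj at -0.15, Macroh2a3 at -0.18, Macroh2a2 at -0.21 and H1f7 at -0.14. H2aj read 1156, 1125 and 1129 across the Yap HET arrays and 1043, 1023 and 997 across the Yap KO arrays, with no overlap and a limma adjusted p of 0.0829. The median of this list was thus below that over all tested probe sets, as was that of the histone members.

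Of 35 genes of mitosis and cytokinesis, 3 fell and 0 rose (limma, with 11 lower and 0 higher at an unadjusted p under 0.05), with a median of -0.12. The 8.57% that fell stands beside 4.53% of all tested probe sets. At an unadjusted limma p under 0.05, 11 of the 35 were lower, where 14.1% of all tested probe sets were. The 3 were Ect2, which starts the cleavage furrow, at -0.28, Aurkb, a kinase of the chromosomal passenger complex, at -0.22 and Racgap1, a subunit of centralspindlin, at -0.24. Plk1, a kinase of mitotic entry, was next at -0.22 with a limma adjusted p of 0.0502. Without Yap HET replicate 1 or 3, or Yap KO replicate 2 or 3, limma called 0 of the 35, and without Yap HET replicate 2 it called 1. Of all tested probe sets, 1.33% to 2.41% were lower in the fits that called 0, and 4.06% in the last.

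Across arrays the lists had different orders. The histone genes were lowest on Yap KO replicate 1, while the medians of the replication, chaperone, variant and mitosis lists were lowest on replicate 2. For replication the medians were -0.18, -0.25 and -0.18 across the Yap KO arrays, and for mitosis -0.07, -0.21 and -0.11. The medians over all tested probe sets were 0.0033, -0.02 and -0.02 on the same arrays.

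**Figure D4:**
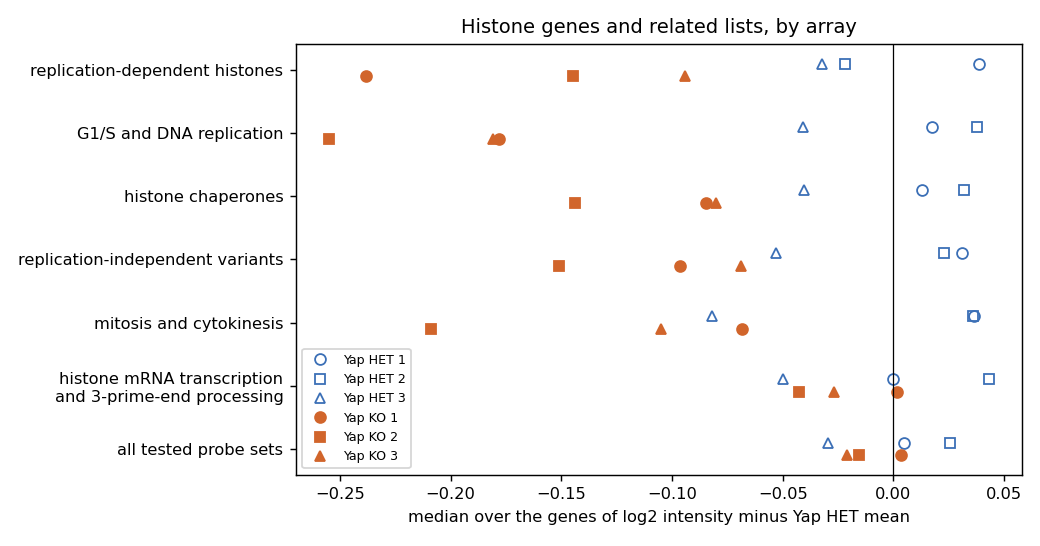
Median over the genes of each list of log2 intensity minus the Yap HET mean (horizontal axis), for each array, with open blue symbols for Yap HET and filled orange symbols for Yap KO. The medians of the histone genes, the replication list, the chaperones and the variants are lower on every Yap KO array than on every Yap HET array, while those of the mitosis list, the transcription and processing list and all tested probe sets overlap.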

How the data were processed

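Array data of 6 mouse samples were used, 3 Yap HET and 3 Yap KO. The authors deposited linear intensities, 1 per probe set, made with RMA per the submitters' processing notes. Version, settings and any need of the labelling for a poly(A) tail were not given in the sources used here. Linear intensities were put on the log2 scale here. The platform annotation gave 21789 probe sets 1 symbol, 1621 several and 12146 none. Those with 1 symbol and a mean over the 6 arrays at or above the 40th percentile (86.4) were tested: 14993 probe sets of 13614 genes. No detection call was used.

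Tests used limma 3.58.1, lmFit and eBayes (R 4.3.3), group as the only term, Benjamini-Hochberg adjustment and a threshold of 0.05. The members, lists and rules were chosen with earlier results of these data known. The rule for named genes gave values for all members past the threshold, the 2 smallest p in classes with fewer than 2 such members, and the 4 smallest p of each list; H2bc4, H2bc8 and H4c8, members given by a change alone, the other shared probe sets, Hbb-y and Anp32e fall outside it. Alternatives were other filters, normalizations, priors, array weights, an offset, the replicate number as a block and each array left out. Protein sequences were not analysed here.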

Additional observations from a re-analysis of the deposited data

How the results depend on the processing

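The count of histone genes called lower, 9, became 1 with no filter, 1 with every probe set past the filter, 4 after median centring, 17 with array weights and 0 with an unmoderated linear model (15 lower at an unadjusted p under 0.05). In the same order, 1.13%, 1.96%, 5.40%, 17.6% and 0.887% of all tested probe sets were called lower. In the unmoderated model, 12.03% of all were lower at an unadjusted p under 0.05. Calls over all probe sets moved too: 1420 as reported, 4769 with array weights, 525 with no filter and 225 unmoderated. The histone count was 12 of 27 with a filter at the 60th percentile and 13 with a trended and robust prior. It was 7 after cyclic loess and 6 after quantile normalization. Beside these stand 7.97%, 7.38%, 5.75% and 5.26% of all tested probe sets called lower. The causes were not tested. Leaving out each array gave 0 to 8 lower and 0 to 1 higher, where 1.33% to 4.44% of all tested probe sets were called lower. H2bc4 was called higher in 1 case each with array weights, with the 60th percentile filter and with the trended and robust prior. The number of changes below 0 (21 to 25) and the median (-0.18 to -0.15) kept their direction in all of the other 12 alternatives.

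Shared replicate numbers had deviations that correlated at -0.088, -0.169 and 0.108, and unlike numbers at -0.217 to 0.272. With 3 arrays per group these correlations cannot decide whether samples pair, which was not given in the sources used here. With the replicate number as a block, limma called 1 histone gene, 12 replication genes, 3 chaperones and 0 mitosis genes lower, and 0 chaperones and 1 processing gene higher. Of all tested probe sets, 2.19% were called lower in that fit.

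Estimates near 0 changed sign: H1f1 (-0.064) and H1f3 (-0.0038) with array weights, and H4c8 with array weights (-0.025), cyclic loess (-0.0020) and quantile normalization (-0.00063). Leaving out each array gave -0.039 to 0.12 for H1f1, -0.044 to 0.039 for H1f3, -0.069 to 0.023 for H2bc8 and -0.025 to 0.046 for H4c8.

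For the related lists, replication genes called lower numbered 41 (1 higher) with array weights, 12 with no filter and 11 unmoderated, and 8 to 19 with each array left out. Chaperones called lower numbered 11, 3 and 2 in the same order, and 2 to 6 with each array left out; Anp32e was not called (0 higher) with no filter, with every probe set or unmoderated, and 0 to 1 were higher with each array left out. Processing genes called higher numbered 0 with no filter, with every probe set or unmoderated and 1 after median centring, 0 to 1 with each array left out, and 2 were lower with array weights. Mitosis genes called lower numbered 23 with array weights, 8 with the trended and robust prior, 6 with the 60th percentile filter, 5 after cyclic loess or quantile normalization, 1 with every probe set, 0 with no filter or unmoderated, and 0 to 2 with each array left out. Variants called lower numbered 4 with array weights, 2 with the trended and robust prior, and 1 each with cyclic loess, quantile normalization and the 60th percentile filter.

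The number of arrays limits precision, and intensities near 86.4 cannot be told from background.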
